A study of Mus musculus with 4 samples.

Results

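The acute phase response is the liver's change in secreted plasma proteins during infection or injury. Its genes here are 10 of the 34844 names in the array's gene name column: the serum amyloid A genes Saa1, Saa2, Saa3 and Saa4, the pentraxin Crp, haptoglobin (Hp), the orosomucoids Orm1, Orm2 and Orm3, and lipocalin 2 (Lcn2). Members were taken as all probes other than controls that carry one of these names, which gave 10 of 55681 probes, 1 per gene and 1 spot per probe.

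The samples were total RNA from primary hepatocytes, the parenchymal cells of the liver, of mice of the strain labelled bl6. All cells were grown with 10% fetal bovine serum, which was lowered to 0.5% for a night together with simvastatin at 5 µM, an inhibitor of cholesterol synthesis, and mevalonic acid at 100 µM, an intermediate of that pathway. The DMSO group (2 samples, replicates a and b) received the vehicle. The other group (2 samples, replicates a and b) received 1 µM GW3965 as well, a compound that activates the liver X receptors (LXR), and the treatment label, "LXR against GW3965", is read here as that agonist. No genetic change is named, and the labels give neither the age of the mice nor whether the letters a and b mark animals, isolations or cultures, so p-values measure only the spread between these samples.

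In hepatocytes, interleukin-6 acting through STAT3, and interleukin-1 and tumour necrosis factor acting through NF-kB, raise the positive acute phase genes together with transcription factors of the C/EBP family. Negative acute phase genes, such as those of albumin and transthyretin, fall in the same response. LXR agonists are known to restrain cytokine-induced acute phase genes in the liver, which gives the comparison of GW3965 with DMSO its question for these genes. No cytokine is named in the treatment of these cells.

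The Saa genes lie side by side on chromosome 7 and the Orm genes on chromosome 4, and each set holds near copies, so the bases of a probe decide which transcript it reads. On build mm9, the Saa3 probe covers chr7:53970389-53970448, the Saa4 probe chr7:53983662-53983721 and the Saa1 probe chr7:53996070-53996129, all on the minus strand, and the Saa2 probe chr7:54009622-54009681 on the plus strand. The Orm1 probe spans chr4:63006483-63007090, the Orm3 probe chr4:63018910-63020393 and the Orm2 probe chr4:63024979-63025038, all on the plus strand. The Orm1 and Orm3 spans, 608 and 1484 bases for probes of 60 bases, show that these probes join 2 exons. The Crp probe covers chr1:174629343-174629402 on the plus strand, the Hp probe chr8:112099045-112099104 and the Lcn2 probe chr2:32240199-32240258 on the minus strand. An annotation of exons and untranslated regions on mm9 was not used here. The probes of 2 Saa and 3 Orm genes are shown, 5′ to 3′ as deposited, and their binding to transcripts of the neighbouring copies was not tested, so values of Saa1 against Saa2 and among the Orm genes may share signal.
Saa1: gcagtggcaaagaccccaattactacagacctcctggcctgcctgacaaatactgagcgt
Saa3: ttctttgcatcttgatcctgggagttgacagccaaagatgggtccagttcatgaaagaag
Orm1: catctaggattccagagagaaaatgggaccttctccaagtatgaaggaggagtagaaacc
Orm2: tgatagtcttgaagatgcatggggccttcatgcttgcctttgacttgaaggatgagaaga
Orm3: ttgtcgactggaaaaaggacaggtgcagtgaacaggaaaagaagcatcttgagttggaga

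All 10 members were well above background on all 4 arrays, as the scanner software judges it, and 0 spots were saturated. Saa1 was the member nearest to the scanner's limit, with a spot mean between 40.7% and 58.6% of the saturation value over the 4 arrays. Levels are given as log2 of the signal after subtraction of the array's own 75th percentile, and they compare arrays for the same probe, not probes with each other. All 20 hepatocyte markers (Alb, Ttr, Hnf4a and others) were measured, and all 20 were well above background on all 4 arrays. Of all probes, 62.5% and 64.1% were well above background on the replicate a arrays and 65.2% and 69.1% on the replicate b arrays, and the part of this share in the values was not tested. The arrays lie on 1 slide read in 1 scan, replicates a at positions 1 and 2 and replicates b at positions 3 and 4, so the replicate letter and the position cannot be told apart.

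The 10 genes separated by replicate letter. In every member both replicate b arrays lay below both replicate a arrays, as they did for 28% of all genes tested. This order by itself makes the DMSO and GW3965 arrays overlap, so their overlap in every member is no separate result on treatment. The median log2 difference over the members was -0.03 for GW3965 against DMSO and -1.005 for replicate b against replicate a. Over all 24498 genes and named features tested, the medians were -0.006 and 0.06.

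Saa1 and Saa2 encode the main inducible serum amyloid A proteins, which travel on high-density lipoprotein. With replicate a given before replicate b here and in the following, Saa1 read 9.59 and 9.25 on the DMSO arrays against 9.78 and 8.81 after GW3965. Saa2 read 9.06 and 8.69 on the DMSO arrays against 9.21 and 8.42 after GW3965. Both genes were highest on GW3965 replicate a and lowest on GW3965 replicate b, so that the treated arrays enclosed the DMSO arrays.

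Saa3, an inducible form also made by macrophages, read 5.42 and 4.47 on the DMSO arrays and 5.42 and 4.30 after GW3965. Saa4, the constitutive form, read 1.45 and -1.24 on the DMSO arrays and 1.57 and -1.25 after GW3965. Saa4 thus had the same level within 0.12 on the 2 arrays of replicate a and within 0.011 on the 2 arrays of replicate b, with a wide gap between the letters in either group. On the scanner's linear scale, before arrays were put on a common scale, the Saa4 spot gave 1484 and 1509 intensity units on the replicate a arrays and 256 and 283 on the replicate b arrays.

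Crp, a pentraxin that binds phosphocholine on microbes and dying cells and is a minor reactant in mice, read -0.49 and -2.41 on the DMSO arrays and -0.47 and -1.71 after GW3965. It was the member whose replicate b arrays differed most, with GW3965 above DMSO by 0.69, while its replicate a arrays differed by 0.017. Hp, the plasma protein that binds free haemoglobin, read 8.84 and 7.43 on the DMSO arrays and 8.96 and 7.21 after GW3965. For Hp the replicate b arrays were low in both groups.

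The orosomucoids are carrier glycoproteins of plasma. Orm1 read 6.58 and 5.94 on the DMSO arrays against 6.57 and 5.87 after GW3965. Orm2 read 7.41 and 6.54 on the DMSO arrays against 7.58 and 6.49 after GW3965. Orm3 read 5.09 and 3.93 on the DMSO arrays against 5.24 and 3.74 after GW3965. All 3 genes were high on both replicate a arrays, and Orm1 had the smallest gap of the 3. Lcn2, which binds bacterial siderophores and so withholds iron, read 8.52 and 7.73 on the DMSO arrays and 8.69 and 7.76 after GW3965, again high on both replicate a arrays.

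**Figure D1:**
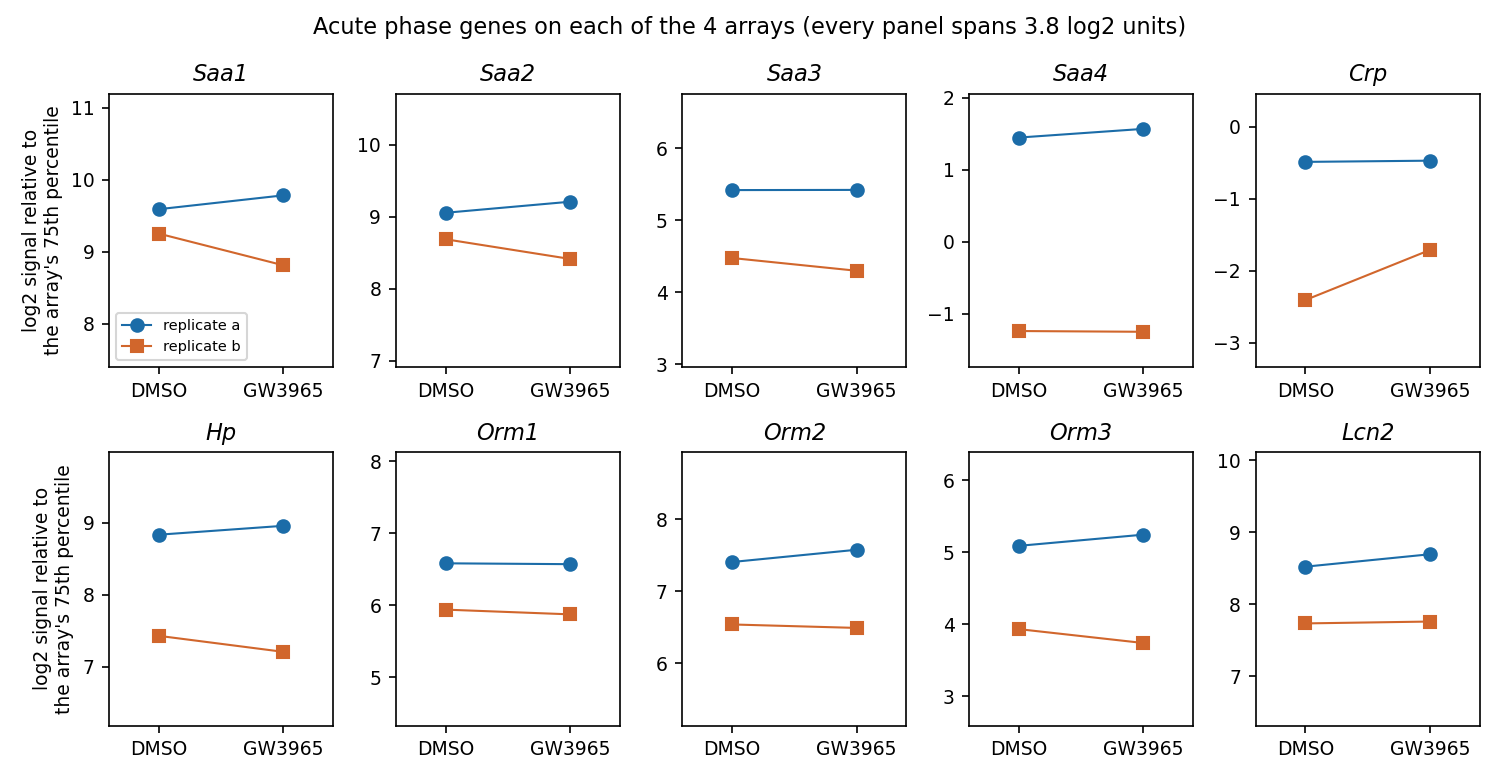
Level of each member on the 4 arrays, as log2 signal minus the array's 75th percentile (y axis), by treatment (x axis); circles joined by a line are replicate a and squares joined by a line are replicate b, with 1 array per point. In all 10 panels both squares lie below both circles, by the widest distance in Saa4, while the lines are close to level in most panels.

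For GW3965 against DMSO, 0 of the 10 members passed limma at an adjusted p under 0.05, in either direction, and 0 had an unadjusted p under 0.05. Among all genes tested, 0% were called higher and 0% lower, and 0.82% had an unadjusted p under 0.05. Both GW3965 arrays were higher without overlap for 9.41% and lower for 6.54%, against 0 members in either direction. That count of 0 members was fixed by their order by replicate letter. Crp had the largest fitted difference, 0.36 ± 0.76 (SE, 2 arrays per group), with an adjusted p of 0.999987 in limma. For Saa1 the difference was -0.12 ± 0.38, for Lcn2 0.10 ± 0.44 and for Saa3 -0.09 ± 0.51. The other members lay between -0.06 (Saa2) and 0.06 (Orm2). With 2 arrays per group, and with the gap between the replicate letters counted as spread within each group, the 95% intervals were wide. The narrowest, for Saa2, ran from -0.94 to 0.82, and the widest, for Saa4, from -3.30 to 3.41. Changes of less than about these sizes could not be detected in this fit. Larger ones could also go uncalled, as these intervals do not allow for the number of genes tested. The smallest adjusted p of all genes was 0.94 in limma. A replicate block for the letter takes the gap between letters out of the spread. With it, standard errors ran from 0.126 (Orm1) to 0.190 (Crp), and 0 members had an unadjusted p under 0.05 in limma.

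On the same arrays, the 17 measured of 18 listed LXR target genes had a median of 0.79, with 13 above 0, 8 at an unadjusted p under 0.05 in limma and 0 at an adjusted p under 0.05. The cholesterol transporters Abca1 (2.58 ± 0.39, SE) and Abcg1 (1.98 ± 0.29) were among the 8. These values are from the fit without a replicate block, in which no gene of the array passed. With the block, 10 genes were called higher and 5 lower over all genes, and values of the targets in that fit are not given here.

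Within a replicate letter, where 1 array stands against 1 and no test is possible, the GW3965 array was above the DMSO array for 9 of 10 members on replicate a, with a median of 0.14 and a range from -0.01 to 0.19. On replicate b it was below for 8 of 10, with a median of -0.12 and a range from -0.44 for Saa1 to 0.69 for Crp. The 2 members above 0 on replicate b were Crp and Lcn2, the latter by 0.026. Over all genes the medians of these differences were 0.02 and -0.02, with 55.0% of genes above 0 on replicate a and 46.0% on replicate b. Leaving out 1 array decided the sign of the pooled difference. All 10 members were above 0 without DMSO replicate a or without GW3965 replicate b (medians 0.49 and 0.59). All 10 were below 0 without DMSO replicate b or without GW3965 replicate a (medians -0.47 and -0.55). Such a fit sets 1 letter against both, so part of the gap between letters enters the difference. These signs are therefore no separate result on treatment.

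**Figure D2:**
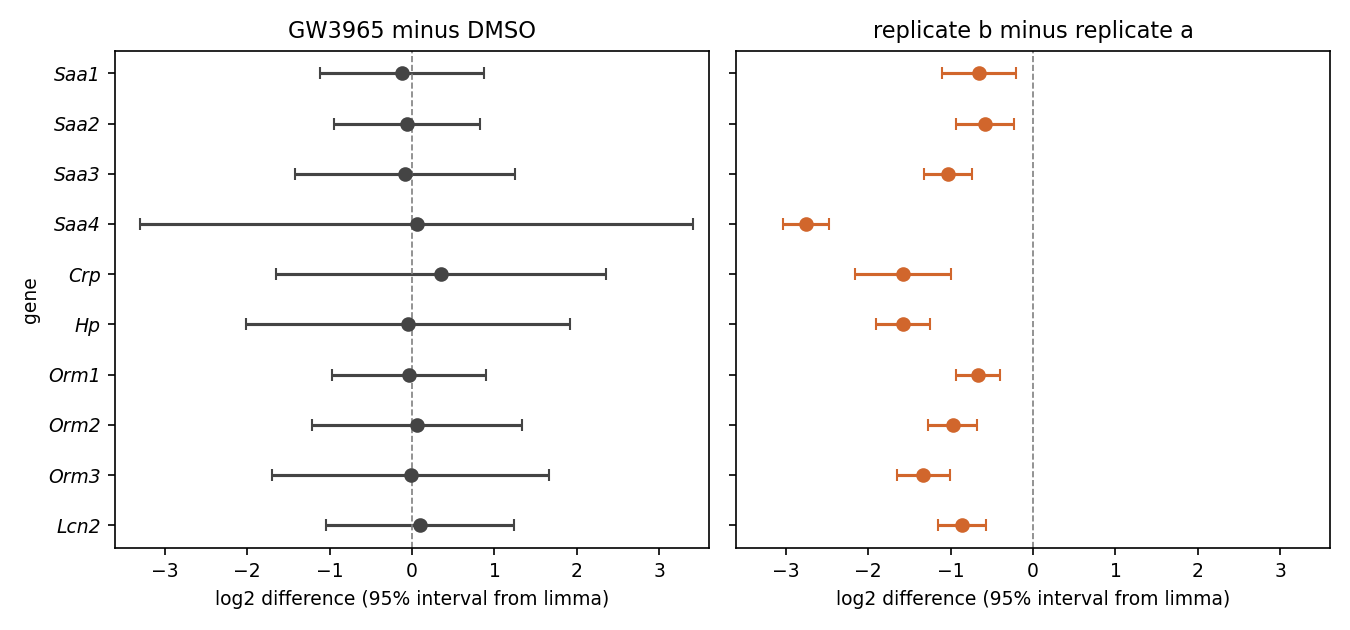
Log2 difference of each member for GW3965 minus DMSO (left) and for replicate b minus replicate a (right). Bars are 95% intervals from limma over 4 arrays, without a replicate block (left) or a treatment term (right). All 10 intervals on the left include 0, and all 10 on the right lie below 0, from -0.58 for Saa2 to -2.75 for Saa4.

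For replicate b against replicate a, with both treatments pooled, 9 of the 10 members fell at an adjusted p under 0.05 in limma, and 0 rose. The spread in this fit is that between the DMSO and GW3965 arrays of the same letter. It does not measure variation between the animals, isolations or cultures that the letters may mark. Among all genes 9.68% were called lower and 12.6% higher, and 38.4% had an unadjusted p under 0.05, which all 10 members had. Both replicate b arrays lay lower without overlap for 28% of genes and higher for 38.4%. The split of calls depends on the scaling: with arrays centred on their median, 1978 genes were called higher and 3307 lower, where the 75th percentile gave 3076 and 2371, and the median over all genes moved from 0.06 to -0.06.

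Saa4 fell most, by 2.75 ± 0.11 on the log2 scale (SE, adjusted p = 0.00102 in limma), which is 6.74-fold lower on replicate b. Its level was 1.51 ± 0.09 (SD, n = 2) on replicate a and -1.25 ± 0.0074 (SD, n = 2) on replicate b, each over 1 DMSO and 1 GW3965 array. Of the 24498 genes tested, 21 had a lower difference, and by p Saa4 ranked 10th. Crp and Hp fell by nearly the same amount, 1.58 ± 0.23 and 1.58 ± 0.13, 2.99-fold and 2.98-fold lower, with the larger error in Crp. Orm3 fell by 1.33 ± 0.13 and Saa3 by 1.03 ± 0.12. Altogether 5 members were at least 2-fold lower on replicate b, as were 2.82% of all genes.

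Smaller falls were found for Orm2 (-0.98 ± 0.12, SE), Lcn2 (-0.86 ± 0.12), Orm1 (-0.67 ± 0.11) and Saa2 (-0.58 ± 0.14, adjusted p = 0.0385 in limma). Saa1, at -0.66 ± 0.18, did not pass, with an adjusted p of 0.0512 in limma. Its gap was -0.34 in DMSO and -0.97 in GW3965, the least even of the members apart from Crp. Neighbouring genes thus differed in size: within the Saa cluster the fold between letters ran from 1.496 for Saa2 to 6.74 for Saa4, and within the Orm cluster from 1.59 for Orm1 to 2.51 for Orm3. The 95% interval of Saa4, from -3.03 to -2.47, did not reach those of the other Saa genes, and those of Saa1 and Saa2 overlapped. These probes also differed in brightness, with spot means of 29.3% to 37.5% of saturation for Saa2 and 0.042% to 0.23% for Saa4. Hp, at 13.1% to 32.3%, had a gap of 2.98-fold. The part of brightness in the size of the gap was not tested.

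Taken within each treatment, the gap had the same sign in all 10 members. Their order by replicate letter, given above, already fixed this sign, so it is no separate result. In DMSO it ran from -0.34 for Saa1 to -2.69 for Saa4, with a median of -0.91, and in GW3965 from -0.70 for Orm1 to -2.82 for Saa4, with a median of -1.10. The gap was wider in GW3965 for 9 of the 10, the exception being Crp (-1.92 in DMSO and -1.24 in GW3965), and with 1 array per letter and group this difference was not tested. It restates the differences between GW3965 and DMSO within each letter given above, and is no separate result. Without GW3965 replicate b, 5 members still passed (Saa3, Saa4, Crp, Hp and Orm3), while Saa2, Orm1, Orm2 and Lcn2 no longer did. Without DMSO replicate b, Saa2, Orm1 and Lcn2 no longer passed, and without GW3965 replicate a, Saa2 no longer did. After quantile normalization Saa1 was at -0.30 (adjusted p = 0.104 in limma) and Saa2 at -0.36 (adjusted p = 0.0532 in limma), so neither passed, and 8 members did.

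**Figure D3:**
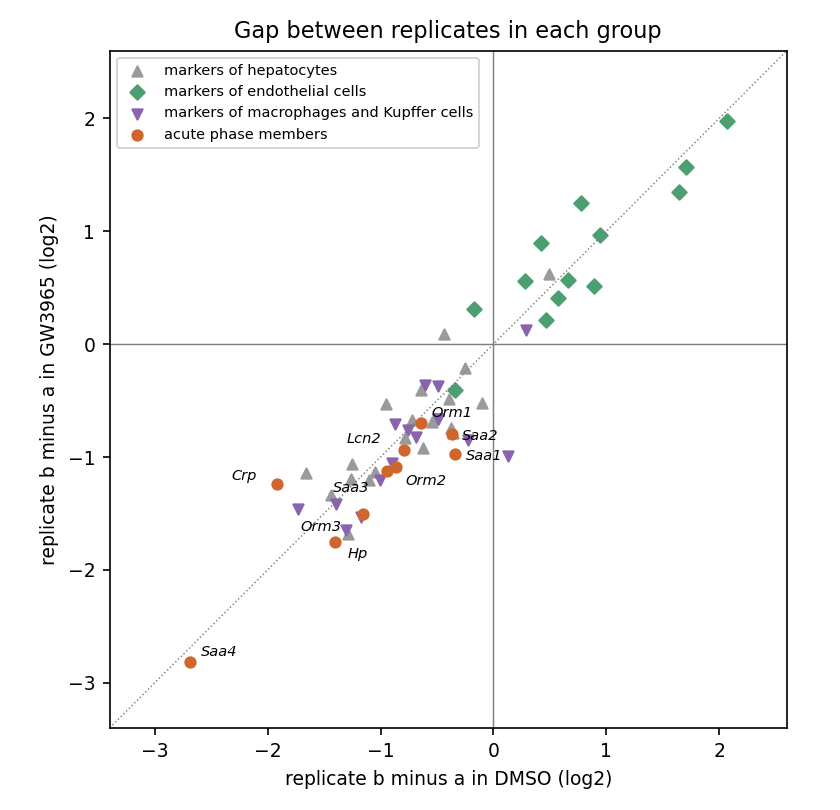
Log2 difference of replicate b minus replicate a in DMSO (x axis) against the same in GW3965 (y axis), 1 point per gene, for the 10 members and for 3 lists of cell type markers; the dotted line marks equal gaps. The members all lie below 0 on both axes with most hepatocyte and macrophage markers, and Saa4 lies farthest out at -2.69 and -2.82, while endothelial markers lie mostly above 0 on both.

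Other genes that rise in the acute phase moved with the members. Of 27 measured of 28 listed, 18 fell from replicate a to replicate b at an adjusted p under 0.05, 1 rose and 8 did not pass, with a median of -0.66. Those that fell included Hamp, which encodes the iron hormone hepcidin (-3.36 ± 0.19, SE), the metalloreductase gene Steap4 (-2.93 ± 0.16), and the fibrinogen chain genes Fgb (-2.39 ± 0.13) and Fga (-2.04 ± 0.16). The gene that rose was the serpin gene Serpina3g, by 0.87 ± 0.16. With GW3965 the same list had a median of -0.02, with 0 at an unadjusted p under 0.05 in limma.

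Genes that fall in the acute phase went the same way as those that rise in it. Of 13 negative acute phase genes, 6 fell on replicate b, 0 rose and 7 did not pass, and all 13 differences were below 0, with a median of -0.51. The 6 included the fetuin gene Ahsg (-2.61 ± 0.11, SE), the apolipoprotein gene Apoa1 (-1.15 ± 0.11) and the transthyretin gene Ttr (-1.09 ± 0.11). Under GW3965 their median was -0.05, with 0 called.

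Markers of hepatocytes were lower on replicate b as well, in a list that shares Alb, Ttr, Apoa1 and Trf with the negative acute phase genes. Of 20 measured, 15 fell, 0 rose and 5 did not pass, with a median of -0.72, and their summed linear level was 3111 and 3275 on the replicate a arrays and 2404 and 2007 on the replicate b arrays. The 15 included the genes of the amino acid enzymes Tat (-1.39 ± 0.11, SE) and Tdo2 (-1.401 ± 0.15). When each array was centred on these 20 markers, an alternative chosen after seeing the data, the median of the members was -0.26 and 5 passed: Saa4 at -2.01, Crp and Hp both at -0.84, Orm3 at -0.59 and Saa3 at -0.29. On that scale Orm2 (-0.24) and Lcn2 (-0.12) did not pass, and Saa1 (0.08), Saa2 (0.16) and Orm1 (0.07) were above 0 and did not pass either. Over all 24498 genes the median on that scale was 0.80, with 20263 called higher and 457 lower. Saa1, Saa2 and Orm1 thus lay below the median of all genes. In such bulk samples fewer cells of a type and less RNA per cell cannot be told apart.

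Saa3 and Lcn2 are also made by macrophages, and Hp and Lcn2 are stored in neutrophil granules. Of 16 measured macrophage and Kupffer cell markers of 18 listed (Cd163 and Timd4 were not measured), 11 fell on replicate b, 0 rose and 5 did not pass, with a median of -0.76. Their summed linear level, which adds up unlike probes, was 80.1 and 90.1 on replicate a against 63.4 and 66.8 on replicate b, and without Cd68, its largest part, 40.8 and 43.9 against 40.1 and 39.7. The complement gene C1qc (-1.106 ± 0.12, SE) was among the 11, as was the Kupffer cell lectin gene Clec4f (-1.47 ± 0.17), whose probe did not clear background well on DMSO replicate b. Of 15 measured neutrophil markers of 16 (without Cxcr2), 8 rose, 3 fell and 4 did not pass. Those that rose included the granule genes Camp (2.42 ± 0.24, SE), Mpo (2.12 ± 0.20), Ltf (1.48 ± 0.15) and Ngp (3.69 ± 0.19), the last well above background on 3 of the 4 arrays, not on GW3965 replicate a. Those that fell were the receptor gene Fpr1 (-1.63 ± 0.23) and, named after their values were seen, the surface marker gene Ly6g (-1.13 ± 0.21) and the granule gene Mmp8 (-2.46 ± 0.34), the last not well above background on GW3965 replicate b. Neutrophil genes thus moved in both directions. Their summed level was 148 and 145 on replicate a against 167 and 146 on replicate b, of which Csf3r alone, at a difference of -0.02, made up 81.3% to 89.2%, and the other 14 markers summed to 16.5 and 15.7 against 31.1 and 24.5. The part of these cells in the members' gap was not tested.

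Among markers of other liver cells more genes rose than fell on replicate b. Of 13 endothelial markers 8 rose and 0 fell, with a median of 0.66 and a summed level of 62.5 and 67.1 on replicate a against 89.2 and 90.0 on replicate b, and the scavenger receptor gene Stab2 rose by 1.497 ± 0.13 (SE). Of 12 measured markers of stellate cells and fibroblasts of 13 (without Lrat), 6 rose, among them Acta2 by 1.70 ± 0.16, and 2 fell, among them the proteoglycan gene Dcn (-1.28 ± 0.12), with summed levels of 211 and 239 against 267 and 261, or 101 and 109 against 94.4 and 90.6 without Vim, the largest part. Of 10 measured cholangiocyte markers of 11 (without Krt7), 4 rose, with Krt19 at 2.53 ± 0.24, and 1 fell, with summed levels of 63.3 and 58.2 against 77.2 and 65.0, of which Spp1, not called at 0.12, made up 84.2% to 93.2%. The other 9 summed to 4.30 and 4.47 against 8.94 and 10.2. In the comparison with GW3965, 0 markers of these 3 lists passed.

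Among the receptors and signalling genes that lead to the acute phase genes, 41 of 41 were measured, of which 10 fell on replicate b, 2 rose and 29 did not pass, with a median of -0.22. Il1rn, the antagonist of the interleukin-1 receptor, fell (-1.80 ± 0.13, SE), as did the endotoxin coreceptor gene Cd14 (-1.19 ± 0.13) and the NF-kB regulator gene Nfkbiz (-0.77 ± 0.12). Il6st, which encodes the shared signalling chain gp130 of the interleukin-6 family receptors, rose by 0.81 ± 0.11. Under GW3965 the counts for the 41 were 0 at an adjusted and 0 at an unadjusted p under 0.05 in limma. The cytokine gene Il1b differed by -0.69 ± 0.59 between GW3965 and DMSO.

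Of 21 transcription factors and corepressors of acute phase genes, 8 fell on replicate b, 2 rose and 11 did not pass, with a median of -0.26. Those that fell included the hepatocyte factor Hnf4a (-1.49 ± 0.17, SE), the membrane-bound factor Creb3l3 (-1.51 ± 0.11) and Nr1h3, which encodes LXR alpha (-0.93 ± 0.11). Atf6, a stress sensor of the endoplasmic reticulum, rose by 1.13 ± 0.11. With GW3965 their median was -0.02 and 0 passed. Gps2 and Ncor1, which encode subunits of a corepressor complex, differed by 0.28 ± 0.34 and 0.28 ± 0.22. Of the 17 measured LXR targets, 3 fell on replicate b (Nr1h3, Abcg5 and Apoe) and 0 rose, with a median of -0.03.

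**Figure D4:**
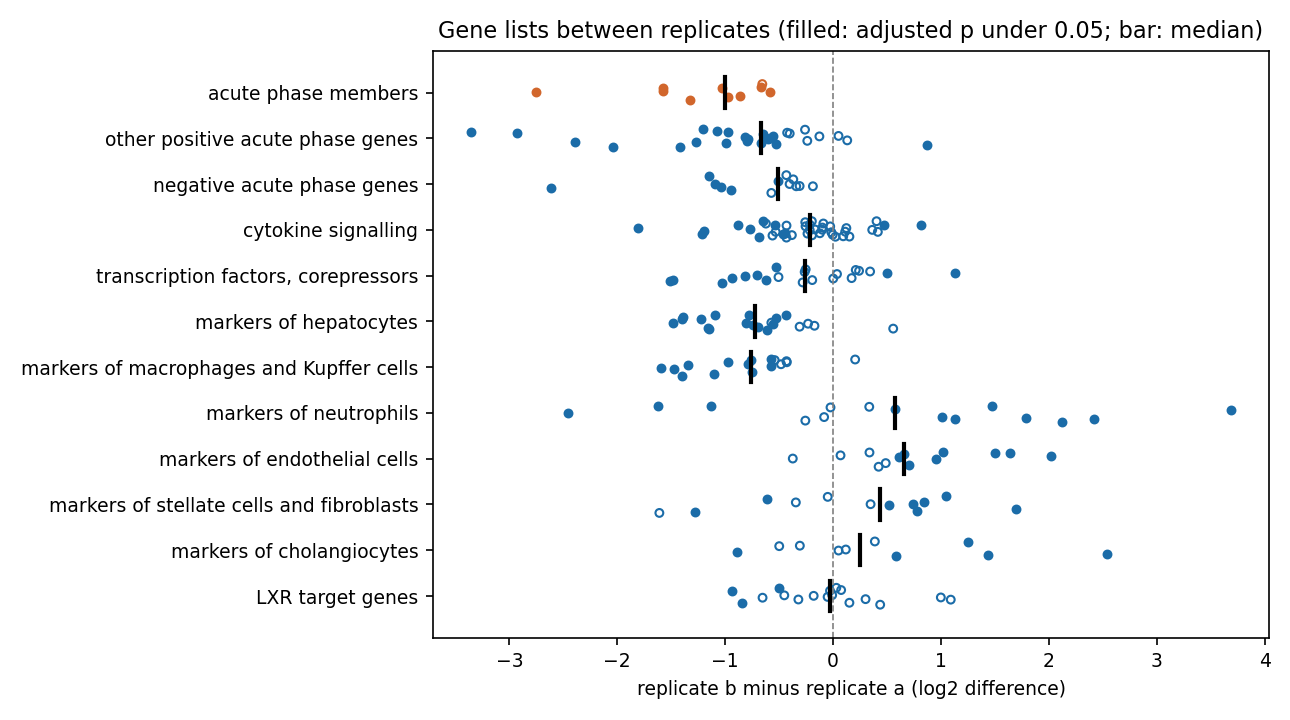
Log2 difference of replicate b minus replicate a (x axis) for the members and 11 gene lists (y axis), 1 point per measured gene, filled where the adjusted p in limma was under 0.05, with a bar at each list's median. The members' bar lies at -1.005, positive acute phase genes, negative acute phase genes, hepatocyte and macrophage markers have bars between -0.51 and -0.76, and the bars of neutrophil, endothelial, stellate and cholangiocyte markers lie above 0.

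The average profile of the members over the 4 arrays, each gene centred on its own mean, was 0.55 on DMSO replicate a, 0.66 on GW3965 replicate a, -0.57 on DMSO replicate b and -0.64 on GW3965 replicate b. Orm3 was the member closest to this average, with a root mean square distance of 0.079, and Saa4 the farthest, at 0.78. Of 12815 other genes that were well above background on all 4 arrays, the nearest were Aldh1l1 (distance 0.0082), Psmb8 (0.026), Ifi27l2a (0.034), Cox7a1 (0.034) and Uox (0.037). Each of these 5 was lower on both replicate b arrays, with differences from -1.15 to -1.25. Their choice by closeness to the members' average profile fixed this direction. Over 4 arrays this likeness is a description.

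The sequence around the transcription start sites of the members was searched on both strands for the letters of 3 factor families named above. RefSeq windows (GRCm38.p6, from 250 bases before the start site to 50 after) were matched for 8 members, Hp and Orm1 not being among them. The C/EBP letters TTGCNNAA occurred in 7 of the 8, all but Crp, against 10.8% of all 32851 windows. The 7 hold near copies, Saa1 with Saa2 (95.3% identical) and Orm2 with Orm3 (86.6%). They are therefore not independent, and an excess over all windows was not tested. The NF-kB letters GGGANNTTC occurred in 0 of 8 and 3.9% of all windows, and the STAT3 letters TTCNNNGAA in 0 of 8 and 8.3%. At such shares, 0 of 8 does not set the members apart from all windows. Sites with other letters or farther from the start site were not searched. Windows of 60 bases around 1 match of each gene are shown in the direction of the gene, with the matched letters in capitals, and the match lies between 52 (Saa4) and 216 (Lcn2) bases before the start site.
Saa1: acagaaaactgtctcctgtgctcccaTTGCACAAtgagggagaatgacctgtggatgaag
Saa2: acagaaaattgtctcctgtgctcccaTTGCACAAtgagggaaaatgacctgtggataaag
Saa3: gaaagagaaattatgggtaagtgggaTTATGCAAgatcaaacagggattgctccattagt
Saa4: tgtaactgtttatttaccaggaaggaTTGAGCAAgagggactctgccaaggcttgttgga
Orm2: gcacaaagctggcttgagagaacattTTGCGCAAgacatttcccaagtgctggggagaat
Orm3: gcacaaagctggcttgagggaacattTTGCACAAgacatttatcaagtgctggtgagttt
Lcn2: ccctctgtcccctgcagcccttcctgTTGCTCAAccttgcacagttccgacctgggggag

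In Saa3 and Saa4 the printed match is on the opposite strand, and Saa4 holds another, 245 bases before the start site. On the minus strand, the Saa1 window lies at chr7:46743129-46743188, that of Saa3 at chr7:46715742-46715801, that of Saa4 at chr7:46732622-46732681 and that of Lcn2 at chr2:32387922-32387981. On the plus strand, the Saa2 window lies at chr7:46751624-46751683, that of Orm2 at chr4:63362303-63362362 and that of Orm3 at chr4:63356011-63356070. The promoters of Saa1 and Saa2 were 95.3% identical over the aligned 301 columns. Those of Orm2 and Orm3 were 86.6% identical over 305 columns. The remaining pairs of promoters shared between 46.7% and 54.2% over gapped alignments. No windows of other genes were aligned beside them, so these shares are not read as likeness. Beside these shares, the gap between replicates was 1.58-fold for Saa1 and 1.496-fold for Saa2, and 1.97-fold for Orm2 and 2.51-fold for Orm3, and within each pair the 95% intervals overlapped. A match of letters is not a bound site.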

How the data were processed

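RNA of 2 DMSO and 2 GW3965 samples was labelled with Cy3, 1 sample per 1-colour Agilent array of design 028005. Per the file headers, the deposited intensity is the processed signal of Agilent Feature Extraction 10.7.3.1, corrected within each array for background and spatial trends, on a linear scale, not scaled between arrays and with positions on mm9. A later version, 11.5.1.11, stands in the submitters' processing notes. The value table deposited by the authors held the same values (largest difference 0), with column medians of 35.5, 34.2, 42.7 and 49.6 (DMSO a, GW3965 a, DMSO b, GW3965 b).

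Log2 processed signals were averaged over spots without outlier flags, and each array's 75th percentile over non-control probes was subtracted. The 35483 probes that passed the well-above-background flag on both arrays of at least 1 group were kept, and the brightest of a name stood for it. Groups, and separately replicate letters, were compared over all 4 arrays with limma 3.58.1 in R 4.3.3 (two-sided, no block, Benjamini-Hochberg over 24498 names, prior degrees of freedom 2.72 and 3.63 beside 2). The fit was tested on simulated data. The members and lists (11, in the files' names or a RefSeq synonym) were chosen with earlier results of these data known. From each list up to 4 genes with the smallest p in either comparison could be named. For likeness, genes on no list, with a RefSeq symbol other than a clone or predicted name, were ranked by distance. Array number limits precision. Alternatives covered scaling, background, filters, probes, variance priors, threshold, block and each array left out.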

Additional observations from a re-analysis of the deposited data

How the results depend on the processing

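For GW3965 against DMSO, 0 members passed under every alternative run, scaling, background, filter, probe choice, variance prior, threshold, block and each array left out. The median of the members stayed between -0.08 and 0.01 over the alternatives that kept all 4 arrays, and Saa2 turned to 0.034 after quantile normalization. With 1 array left out it ran from -0.55 to 0.59, a lone array being assumed to vary like the other group. Part of the gap between letters enters the differences of such fits. The ranges for single genes were -0.61 to 0.36 (Saa1), -0.46 to 0.34 (Saa2), -0.65 to 0.47 (Saa3), -1.35 to 1.46 (Saa4), -0.60 to 1.31 (Crp), -0.92 to 0.83 (Hp), -0.39 to 0.31 (Orm1), -0.48 to 0.60 (Orm2), -0.77 to 0.73 (Orm3) and -0.37 to 0.57 (Lcn2). The labels share only a letter between groups, with 2 pairs, and same-letter arrays deviated together across genes (r = 0.72 over 24498 genes, which are not independent). With the letter as a replicate block, the members' median was -0.03, 0 passed at an adjusted p of 0.987 or more, and standard errors ranged from 0.126 (Orm1) to 0.190 (Crp), against 0.337 (Saa2) to 1.28 (Saa4) without it; over all genes the block gave 10 higher and 5 lower calls where the fit without it gave 0. Genes at an unadjusted p under 0.05 numbered 201 in that fit, 1321 with the block, 56 with normexp, 94 with a filter on all arrays, 114 with an intensity trend, 365 by single probes, 535 with no filter and 415 with the DMSO array of replicate b left out.

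For replicate b against replicate a, all 10 members stayed below 0 under every alternative run except centring on hepatocyte markers. Saa3, Saa4, Hp and Orm3 passed under every one, while Saa1 passed under 7. The median moved to -1.13 when arrays were centred on their median, and lay between -1.06 and -0.95 with 1 array left out, where 5 to 10 members passed. Without a filter on dim probes 6 members passed, and 1196 genes were called higher and 877 lower over 34841 names. Centred on hepatocyte markers, which was chosen after seeing the data, 5 members passed, the median was -0.26, and Saa1 (0.084), Saa2 (0.159) and Orm1 (0.070) turned above 0; all genes then had a median of 0.80, by construction, with 20263 called higher and 457 lower. Treatment as a further term left 9 members passing. Beside these and the counts from centring on the median, counts over all genes (3076 higher and 2371 lower) that moved by over 1.5 times in at least 1 direction were 4026 higher and 3927 lower with normexp, 843 higher and 878 lower with the DMSO array of replicate b left out, 739 and 685 with the GW3965 one left out, and 4781 and 3499 at an adjusted p under 0.1. All 10 genes were well above background on all 4 arrays.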
